A study of Mus musculus with 12 samples.

Results

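Endothelial nitric oxide synthase, the enzymes that supply its cofactor and clear its inhibitors, the caveolins, and the diaphragm protein of endothelial pores were followed across 4 populations sorted from mouse bone marrow with endothelial gates. The 9 genes are listed by name as a functional group, 9 of the 17362 genes of the table, and all 9 passed the filter on low values. RNA came from untreated B6 mice, with no genetic change named in the labels, and the age and sex of the mice are not given there. Tibia, femur and iliac bone were crushed, cells were sorted, and 12 libraries were made, 3 in each population, from 6 mice in all.

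CD200-high capillaries were gated as CD200Hi, Sca1+, CD31+, EMCN- and CD45-. Type H vessels, a bone vessel type defined by endomucin (EMCN), were gated as EMCN+, Sca1+, CD31+ and CD45-. The arterial cells were gated as CD200-, Sca1+, CD31+ and CD45-. The last group was gated as CD31+, Sca1+ and CD45- and labelled sinusoidal, and is called here the libraries labelled sinusoidal. A gate of this kind also takes in the other 3 gates, and the arterial gate names no EMCN. The labels do not say how the 6 mice were divided among the 3 libraries of a population, so p-values measure the spread between these libraries.

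Nitric oxide made by endothelial nitric oxide synthase relaxes vessel walls and restrains platelets and leukocytes. The enzyme needs the cofactor tetrahydrobiopterin and is inhibited by methylated arginine, and in endothelium it is held inactive at caveolae by caveolin-1. Caveolae are flask-shaped pits of the plasma membrane built from caveolins and cavins, and in some vessels their necks, like the pores of fenestrated endothelium, are closed by a diaphragm made of PLVAP. Marrow sinusoids are known for thin, leaky, diaphragm-bearing walls, and arterial vessels for continuous walls.

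Values are log2 CPM, the log2 of counts per 1e6 reads of a scaled library size with 0.5 read added, given for replicates 1, 2 and 3 and as mean ± SD of n = 3. Differences are log2 ± SE from limma, and passing means a p under 0.05 after Benjamini-Hochberg adjustment over the 17086 genes tested in that comparison. Each library held between 7.33 and 21.6 M listed reads, M standing for 1e6. The sorting antigens and cell markers bear on every comparison below. Cdh5, the cadherin that defines endothelial junctions, was highest in type H (8.38 ± 0.15), followed by CD200-high (7.76 ± 0.65) and arterial libraries (7.29 ± 0.22). It was near 0 in the libraries labelled sinusoidal, at -0.47 ± 0.95, where Ly6a, the Sca1 gene, was at 4.05 ± 0.71 against 8.92 to 10.19 elsewhere. The 16 pan-endothelial genes took 0.0275% to 0.0299% of the reads in the libraries labelled sinusoidal. The same list came to 0.188% to 0.252% of arterial reads, 0.298% to 0.596% of CD200-high reads and 0.99% to 1.04% of type H reads. Emcn, the endomucin gene, was at 8.26 ± 0.42 in CD200-high, which was gated EMCN-, and at 9.02 ± 0.03 in type H, a difference that did not pass (adjusted p = 0.221). All CD200-high values of Emcn lay under those of type H, with a difference of -0.76 and a 95% interval of -1.58 to 0.05. Cd200 was higher in CD200-high than in the 3 other populations (9.81 ± 0.02 against means of 5.43 to 7.80). Pecam1, the CD31 gene of all 4 gates, was at 8.97 ± 0.10 in type H, 8.37 ± 0.55 in CD200-high, 7.24 ± 0.19 in arterial and 6.22 ± 0.21 in sinusoidal-labelled libraries. Ptprc, the CD45 gene that all 4 gates exclude, was at 3.98 ± 0.57, 5.38 ± 0.65, 7.41 ± 0.23 and 6.55 ± 0.31 in the same order, and was lower in type H than in arterial libraries by -3.44 ± 0.36 (adjusted p = 9.26e-05). Of the 16 pan-endothelial genes, 1 (Sox17, named after its values were seen) had no reads in the 3 libraries labelled sinusoidal.

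Other marker lists also differed between the populations. The 10 sinusoidal genes took 1.49% to 1.77% of the reads in type H libraries but only 0.0182% to 0.0343% in the libraries labelled sinusoidal. Bone and osteoblast genes took 12% to 16.4% of CD200-high reads, but 0.413% to 0.539% of type H, 1.63% to 1.88% of arterial and 0.886% to 1.87% of sinusoidal-labelled reads. Reticular stroma and adipocyte genes took 0.503% to 1.06% in arterial libraries, against 0.0377% to 0.28% over the other 9. Neutrophil genes took 2.13% to 3.23% and erythroid genes 1.09% to 2.26% in arterial libraries, against 0.435% to 1.12% and 0.216% to 0.693% over the other 9. Mural cell genes took 0.238% to 0.273% in type H, against 0.00386% to 0.0396% over the other 9. In type H, Abcc9 and Kcnj8 made up most of this share, with mean CPM of 1082 and 1548. The median of the 9 mural genes was lower there, at -3.59 to 1.73 log2 CPM against 3.94 to 4.26 in arterial libraries. In type H against arterial, 2 of the 9 were higher and 4 lower (20.7% of all genes passed). Megakaryocyte and platelet genes took 0.319% to 0.421%, and B and plasma cell genes 0.932% to 1.08%, in the libraries labelled sinusoidal. In sorted bulk RNA, fewer cells of a type and less RNA per cell cannot be told apart, and the part these cells play in the results below was not tested.

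**Figure D1:**
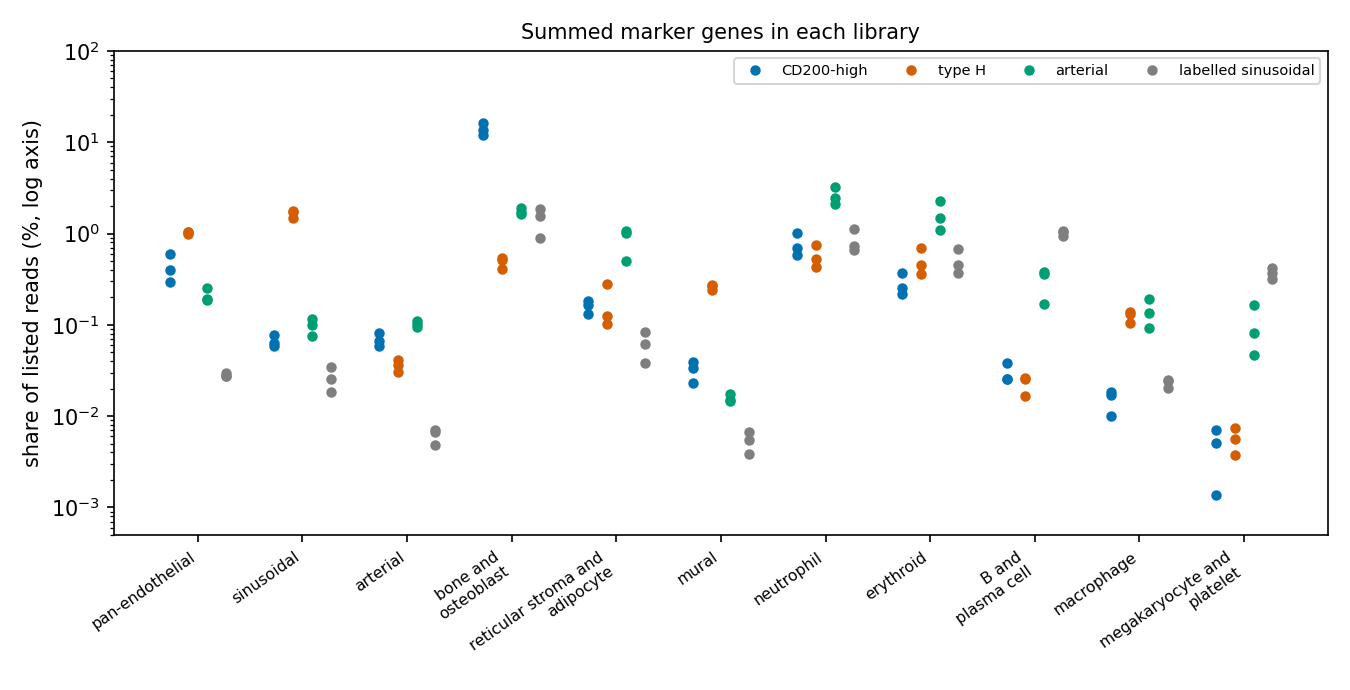
Share of the listed reads (%, log axis) taken by each summed marker list, 1 point per library and 3 libraries per population. Pan-endothelial genes are lowest in the libraries labelled sinusoidal (0.0275% to 0.0299%), sinusoidal genes highest in type H (1.49% to 1.77%) and bone genes highest in CD200-high (12% to 16.4%).

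Most of the 9 genes passed in CD200-high and in type H against the libraries labelled sinusoidal. Against these libraries, 6 of the 9 were higher in CD200-high, where 14.1% of all genes were higher, and 1 was lower, where 14.6% were lower (28.7% in either direction). In type H 6 were higher (13.9% of all genes) and 0 lower (14.6%, or 28.6% in either direction by limma). In arterial libraries 4 were higher (8.09%) and 0 lower (2.14%, or 10.2% in either direction by limma). The median difference of the 9 was 3.72, 1.82 and 1.89 in these comparisons, beside -0.22, -0.20 and -0.02 over all genes. The values of the compared populations did not overlap for 7, 8 and 7 of the 9, beside 46.5%, 46.8% and 39.5% of all genes. The counts higher and lower were unchanged with every library at the same total, but not with equal pan-endothelial medians. When the libraries were instead aligned so that their pan-endothelial medians were equal, 0 of the 9 were higher and 5 lower in CD200-high by limma, and 1 higher and 6 lower in type H and likewise in arterial libraries. Of all genes called there, 0.968%, 0.71% and 1.29% were then higher, against 49.1%, 48.8% and 79.1% as deposited. With every library brought to the same total these shares were 35.5%, 41.2% and 69%, and the counts of the 9 were 6 and 1, 6 and 0, and 4 and 0.

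Among CD200-high, type H and arterial libraries, 2 to 4 of the 9 passed in each comparison. Between CD200-high and arterial libraries 1 was higher (4.75% of all genes) and 1 lower (8.15%, or 12.9% in either direction). For CD200-high against type H, 2 were higher (6.66%) and 1 lower (6.35%, or 13% in either direction). For type H against arterial, 3 were higher (7.96%) and 1 lower (12.7%, or 20.7% in either direction). This last count came to 2 when type H replicate 1 or 3, or arterial replicate 1 or 2, was left out. The values did not overlap for 4, 4 and 5 of the 9 in these comparisons, beside 32.2%, 30.9% and 40% of all genes. With equal pan-endothelial medians the counts higher and lower were 1 and 1, 2 and 0, and 1 and 4 in these comparisons. Of all genes called, 2.99%, 88.8% and 2.04% were then higher, against 36.8%, 51.2% and 38.5% as deposited and 24.7%, 42.9% and 35.8% at the same total. The comparisons share libraries, so their counts are not independent of each other.

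**Figure D2:**
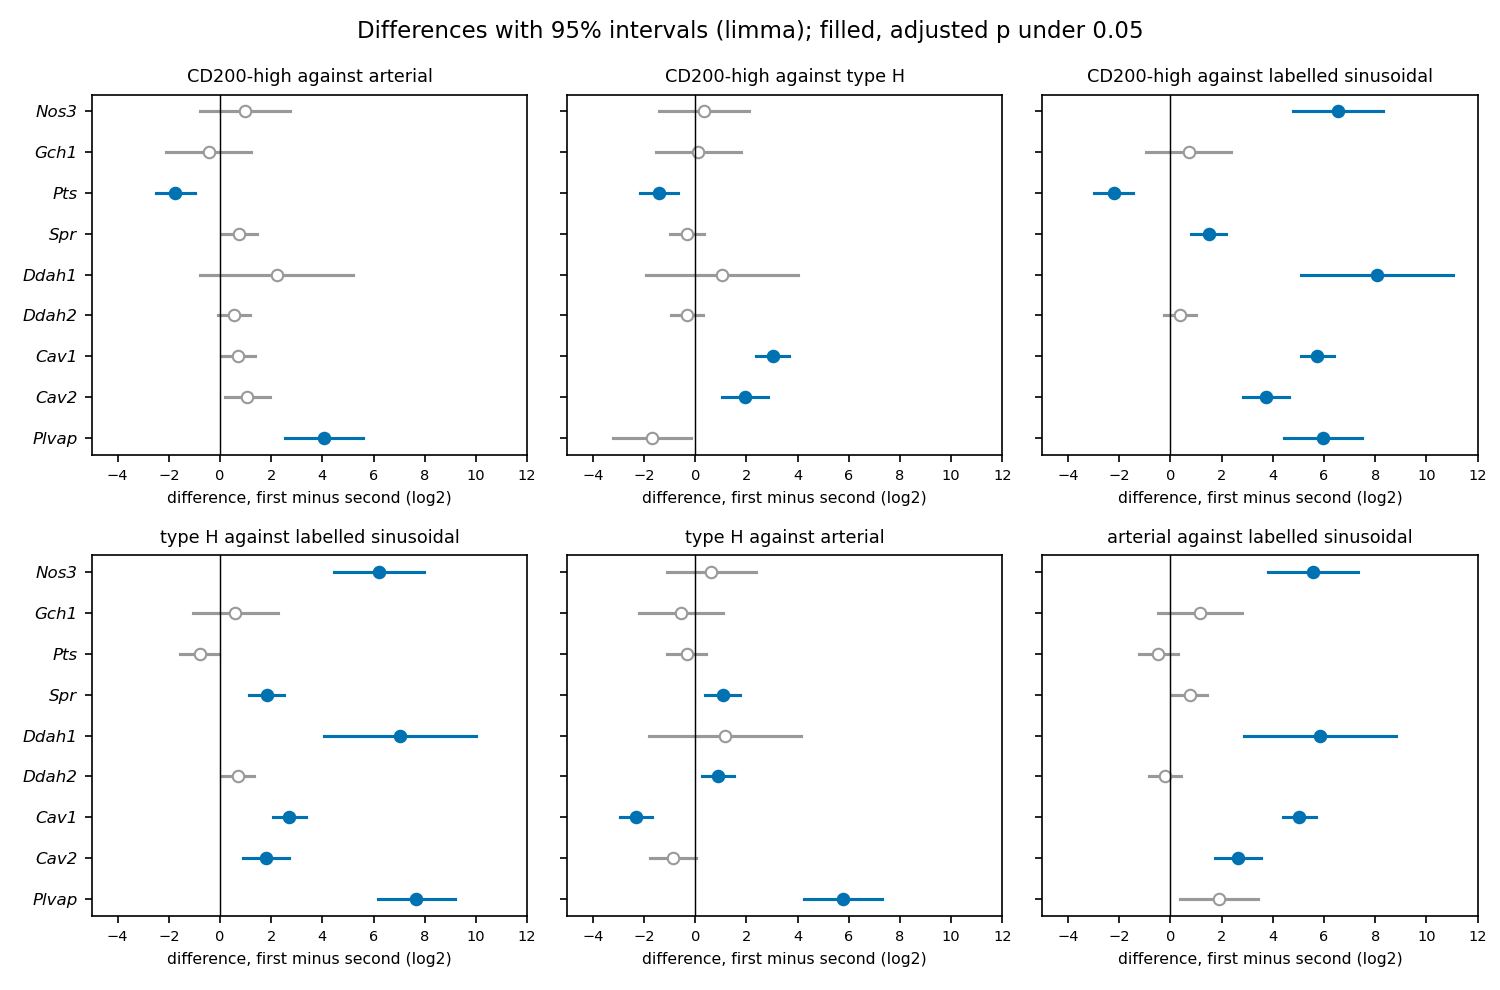
Difference between 2 populations (log2, first minus second) for each of the 9 genes in the 6 comparisons, with 95% intervals from limma and filled points where the adjusted p is under 0.05. Plvap lies at 5.78 and Cav1 at -2.31 in type H against arterial libraries, on opposite sides of 0, while the intervals of Nos3 among CD200-high, type H and arterial libraries all include 0.

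Nos3, which encodes endothelial nitric oxide synthase, was readily detected in CD200-high, type H and arterial libraries and held at most 30 reads in those labelled sinusoidal. It stood at 5.09, 6.06 and 6.24 log2 CPM in CD200-high libraries (5.80 ± 0.62) and at 5.52, 5.92 and 4.93 in type H (5.46 ± 0.50). Arterial libraries held 4.68, 4.65 and 5.13 (4.82 ± 0.27), and the libraries labelled sinusoidal 0.45, 0.30 and -3.04 (-0.76 ± 1.97). The last 3 values rest on 24, 30 and 2 reads, and none of them reaches the other 9 libraries. Nos3 was higher than in the libraries labelled sinusoidal by 6.56 ± 0.80 in CD200-high (adjusted p = 0.000109), 6.22 ± 0.80 in type H (adjusted p = 0.000135) and 5.58 ± 0.80 in arterial libraries (adjusted p = 0.000931). With every library shifted to the same pan-endothelial median, these differences were 1.5, 0.16 and 1.52 and none passed (adjusted p = 0.171, 0.882 and 0.176).

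Among the 3 populations with clear Cdh5, no difference in Nos3 passed the test. The values of CD200-high and arterial libraries overlapped, with a difference of 0.98 and a 95% interval of -0.78 to 2.73 (adjusted p = 0.475). CD200-high and type H differed by 0.34 (interval -1.41 to 2.10, adjusted p = 0.827), and type H and arterial by 0.63 (interval -1.12 to 2.39, adjusted p = 0.629). The fit shares 1 spread over all 4 populations. These intervals therefore also carry the SD of 1.97 of the libraries labelled sinusoidal, against 0.27 to 0.62 in the populations compared. None of the 3 differences passed in any of 23 alternatives, among them fits of only the 2 populations compared. In the GENCODE M21 annotation, 7.12% of the exon bases of Nos3 are shared with Atg9b and 25.2% with the antisense model Gm15587, both on the opposite strand. The strand counted is not given in the sources used here, so how reads on these shared bases were assigned cannot be told. Atg9b had the same order of means as Nos3, at 4.21 ± 0.91 for CD200-high, 3.80 ± 0.31 for type H, 3.49 ± 0.32 for arterial and -2.32 ± 2.64 for sinusoidal-labelled libraries. Gm15587 also kept that order, at 6.36 ± 0.56, 5.97 ± 0.41, 4.95 ± 0.14 and -2.56 ± 3.07.

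The genes most like Nos3 over the 12 libraries, by Pearson r of log2 values among 4991 named genes of mean level 5 or more, were Cyyr1 (r = 0.98), Adgrf5 (r = 0.97) and Ehd2 (r = 0.97). The r values are descriptions, since the 12 points share 4 populations and each of these genes was lowest in the libraries labelled sinusoidal. Cyyr1, a membrane protein gene, stood at 7.94, 7.85, 6.77 and 0.41 in CD200-high, type H, arterial and sinusoidal-labelled means. Adgrf5, an adhesion receptor of endothelium, was at 8.98, 9.20, 8.14 and 1.73 in the same order. Ehd2, an ATPase that stabilises the necks of caveolae, is described with the caveolar coat below.

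**Figure D3:**
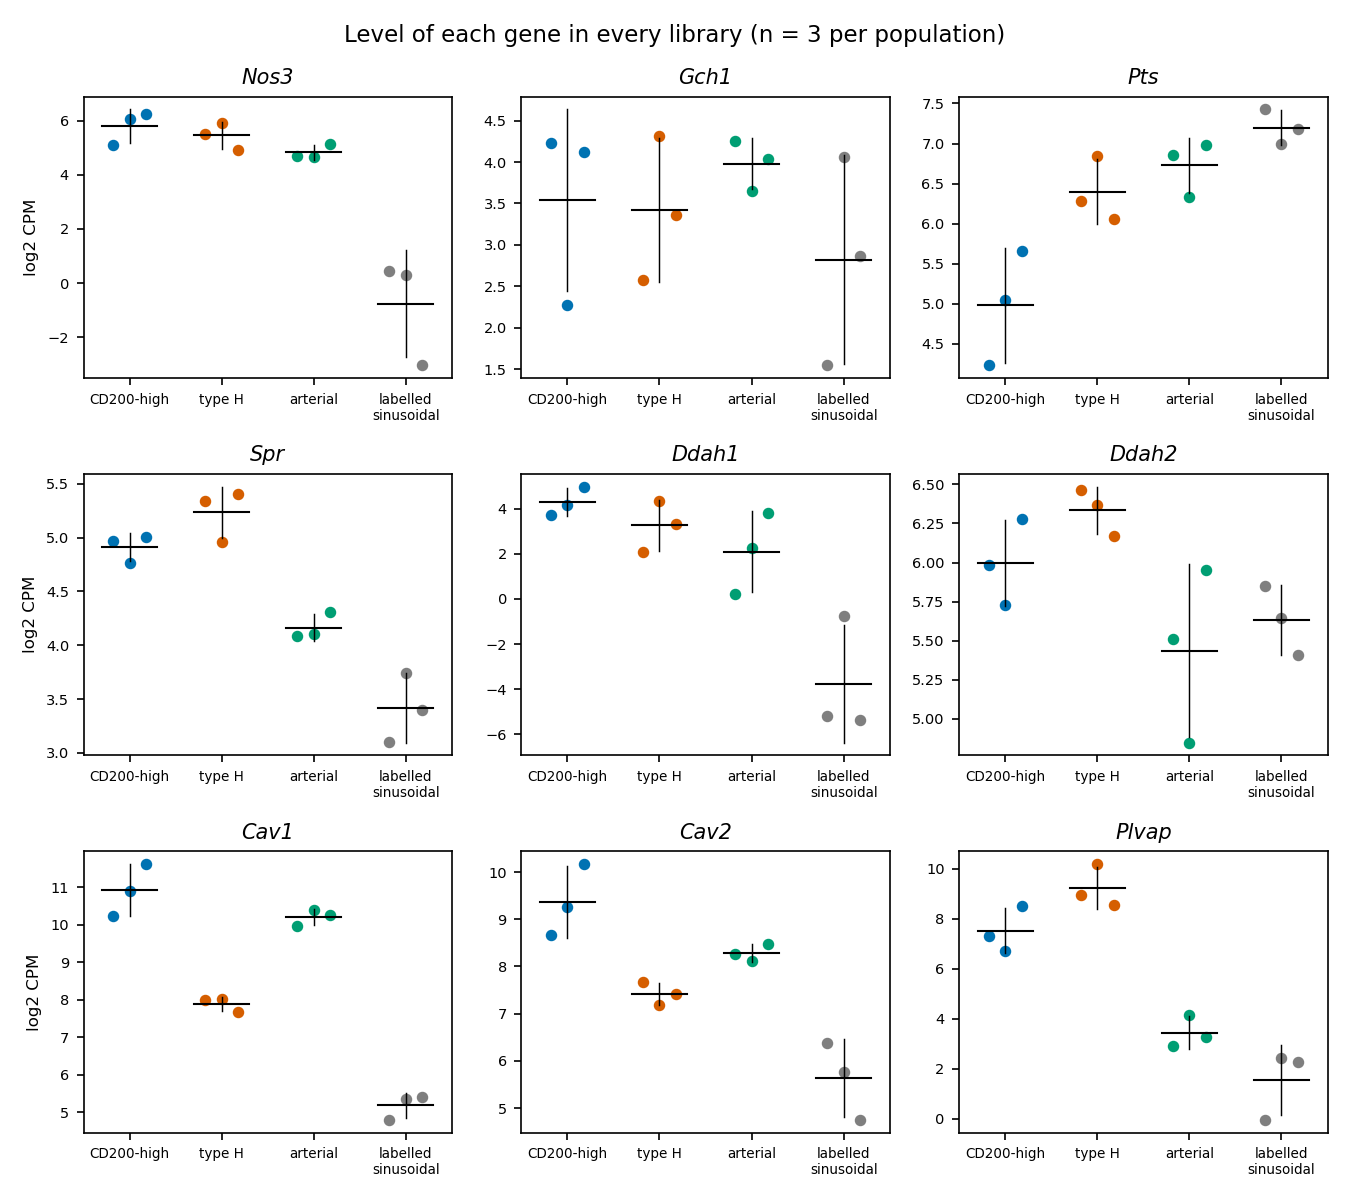
Level of each of the 9 genes (log2 CPM, a separate vertical scale in each panel) in every library, with points for replicates 1 to 3, a horizontal line at the mean and a vertical line of 1 SD. Nos3 and Ddah1 fall away in the libraries labelled sinusoidal, Pts runs the other way, Cav1 and Cav2 are lower in type H than in CD200-high, and Plvap is high in CD200-high and type H alone (means 7.53 and 9.23).

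Regulators and partners of the synthase, taken from a list of 18 genes of which 17 were tested, are described first between CD200-high, type H and arterial libraries. Of the 17, CD200-high had 1 higher and 2 lower against arterial libraries (12.9% of all genes passed), and 1 higher against type H (13% of all genes). Type H had 2 higher and 1 lower against arterial libraries (20.7% of all genes). The count of 3 in CD200-high against arterial was 1 without the trend and 5 without replicate 1 of those labelled sinusoidal, and the 1 against type H was 3 without CD200-high replicate 3. The count of 3 in type H against arterial was 1 without type H replicate 1 or 3 or arterial replicate 1 or 2, and 10 with equal pan-endothelial medians. The list's median differences in these comparisons were -0.02, -0.17 and 0.11, beside -0.22, -0.05 and -0.20 over all genes. Calm2, a calcium sensor gene, was higher in CD200-high by 0.68 ± 0.12 against arterial (adjusted p = 0.00458) and by 0.88 ± 0.12 against type H (adjusted p = 0.000673). Against arterial it turned to -0.31 with equal pan-endothelial medians. Hsp90aa1, a chaperone that binds the synthase, stood at 6.65 ± 0.45 for CD200-high against 7.71 ± 0.30 for arterial libraries, lower by -1.06 ± 0.23 (adjusted p = 0.0123). The call was lost without arterial replicate 1 (-0.92, adjusted p = 0.0539). In type H it was lower again, at -1.43 ± 0.23 against arterial libraries (adjusted p = 0.00125).

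Against the libraries labelled sinusoidal, 3 of the 17 were higher and 2 lower in CD200-high, 6 higher and 2 lower in type H, and 3 higher and 0 lower in arterial libraries by limma. Of all genes 28.7%, 28.6% and 10.2% passed there, and with equal pan-endothelial medians 12, 14 and 14 of the 17 did. The count of 8 in type H was 5 without type H replicate 1 or 3 or replicate 2 of those labelled sinusoidal. Klf2 and Klf4 encode transcription factors that are induced by blood flow and raise Nos3 expression. Klf4 was at 6.5 ± 0.15 for type H, 6.33 ± 0.50 for CD200-high, 5.15 ± 0.37 for arterial and 3.35 ± 0.69 for sinusoidal-labelled libraries. It was higher than in the last by 2.98 ± 0.38 in CD200-high (adjusted p = 0.000136), by 3.15 ± 0.38 in type H (adjusted p = 7.44e-05) and by 1.80 ± 0.38 in arterial libraries (adjusted p = 0.00961). All 3 turned negative with equal pan-endothelial medians. Klf2 was at 6.0 ± 0.51, 4.86 ± 0.65, 4.41 ± 0.32 and 2.48 ± 0.99 for CD200-high, type H, arterial and sinusoidal-labelled libraries. Its difference from the last was 3.51 ± 0.53 for CD200-high (adjusted p = 0.000453), which turned to -1.54 with equal pan-endothelial medians. Nos2, the inducible synthase gene, had no reads in the 3 libraries labelled sinusoidal. It had 14, 178 and 54 reads in CD200-high, at least 49.7-fold higher when the former are taken at a floor of 3 reads per library, and at least 32.0-fold without CD200-high replicate 2. Type H had 41, 45 and 38 reads and arterial libraries 99, 42 and 26, at least 16.2-fold and 25.9-fold higher by the same floor. These bounds hold for the deposited scaling. With equal pan-endothelial medians Nos2 did not pass in CD200-high (2.68, adjusted p = 0.0528) or type H (0.57, adjusted p = 0.657). Type H also did not pass with 10 CPM added (0.30, adjusted p = 0.302), and the arterial call did not hold in 1 of 22 alternatives.

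The cofactor enzymes act in the order Gch1, Pts and Spr, and the 3 genes had unlike patterns. Gch1 encodes GTP cyclohydrolase, the rate-limiting first step, and it passed in none of the 6 comparisons. It stood at 4.23, 2.27 and 4.12 in CD200-high (3.54 ± 1.10) and at 2.58, 4.32 and 3.36 in type H (3.42 ± 0.87). Arterial libraries held 4.25, 3.65 and 4.04 (3.98 ± 0.31), and those labelled sinusoidal 1.55, 4.06 and 2.87 (2.82 ± 1.26). The 4 populations overlapped, with adjusted p from 0.413 to 0.94. Its largest difference was for arterial against the libraries labelled sinusoidal, at 1.16 with a 95% interval of -0.50 to 2.81.

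Pts encodes 6-pyruvoyl-tetrahydropterin synthase, the second step, and was lowest in CD200-high. Its values were 4.23, 5.05 and 5.66 in CD200-high (4.98 ± 0.72) and 6.29, 6.84 and 6.06 in type H (6.40 ± 0.40). Arterial libraries held 6.86, 6.34 and 6.98 (6.73 ± 0.34), and the libraries labelled sinusoidal 7.43, 6.99 and 7.18 (7.20 ± 0.22). All 3 CD200-high values lay under the other 9. Pts was the 1 gene of the 9 with its highest mean in the libraries labelled sinusoidal. The difference for CD200-high was -2.22 ± 0.35 against the libraries labelled sinusoidal (adjusted p = 0.000607), -1.75 ± 0.35 against arterial (adjusted p = 0.00711) and -1.41 ± 0.35 against type H (adjusted p = 0.0189). The last no longer passed in 5 of 23 alternative fits, among them without CD200-high replicate 1 (-1.04, adjusted p = 0.0535), without type H replicate 2 (-1.19, adjusted p = 0.0641) or with equal pan-endothelial medians (-0.41, adjusted p = 0.538). Neighbours in the order of type H, arterial and the libraries labelled sinusoidal did not pass against each other.

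Spr encodes sepiapterin reductase, the last step, and was highest in type H. Type H libraries held 5.34, 4.96 and 5.41 (5.23 ± 0.24) and CD200-high 4.97, 4.77 and 5.0 (4.91 ± 0.13). Arterial libraries held 4.08, 4.10 and 4.31 (4.17 ± 0.13), and the libraries labelled sinusoidal 3.11, 3.75 and 3.40 (3.42 ± 0.32). The values of CD200-high and type H overlapped, and both lay above all arterial libraries, which lay above all those labelled sinusoidal. Spr was higher than in the libraries labelled sinusoidal by 1.82 ± 0.31 in type H (adjusted p = 0.000965) and 1.5 ± 0.31 in CD200-high (adjusted p = 0.00388), and both turned negative with equal pan-endothelial medians (-4.24 and -3.56). Type H passed against arterial (1.07 ± 0.31, adjusted p = 0.03), and lost the call without type H replicate 1 or 3 or any 1 arterial replicate (adjusted p = 0.0852, 0.0917, 0.0813, 0.0745 and 0.0556). It turned to -0.93 with equal pan-endothelial medians. CD200-high against arterial, at 0.75 ± 0.31, did not pass (adjusted p = 0.143).

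The other cofactor and methylarginine enzymes came to 8 tested genes of a list of 9. Between CD200-high and arterial libraries limma called 0 of the 8 (12.9% of all genes passed), and 1 was lower in CD200-high against type H (13% of all genes). Against the libraries labelled sinusoidal 3 were lower for CD200-high, 1 higher and 1 lower for type H, and 1 lower for arterial libraries, where 28.7%, 28.6% and 10.2% of all genes passed. With equal pan-endothelial medians all 8 passed in each of these 3. The 3 for CD200-high came to 1 without CD200-high replicate 2 or any 1 of those labelled sinusoidal. The 1 for arterial came to 0 by limma without arterial replicate 2 or 3 or replicate 1 or 2 of those labelled sinusoidal. In type H against arterial libraries 1 was higher (20.7% of all genes), and 6 passed with equal pan-endothelial medians. The list's median differences ran from -0.94 to -0.26 over the 6 comparisons, beside -0.22 to -0.02 over all genes. Gchfr, whose product feeds cofactor and phenylalanine levels back on GTP cyclohydrolase, was higher in type H than in each other population. It stood at 6.90, 6.93 and 6.46 in type H, and at 5.45, 5.08 and 5.13 for CD200-high. Arterial libraries held 4.77, 4.23 and 4.26, and those labelled sinusoidal 5.91, 5.89 and 5.15. All 3 type H values lay above the other 9. Type H was higher by 2.34 ± 0.28 against arterial (adjusted p = 0.0002), by 1.12 ± 0.28 against the libraries labelled sinusoidal (adjusted p = 0.0111), and CD200-high stood at -1.55 ± 0.28 against type H (adjusted p = 0.00368). With equal pan-endothelial medians Gchfr no longer passed in type H against arterial or in CD200-high against type H, and turned to -4.94 in type H against the libraries labelled sinusoidal.

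Ddah1 and Ddah2 encode the hydrolases that break down methylated arginine, the natural inhibitor of the synthase, and they had unlike patterns. Ddah1 stood at 3.74, 4.17 and 4.98 in CD200-high (4.29 ± 0.63), 2.10, 4.36 and 3.31 in type H (3.26 ± 1.13) and 0.22, 2.25 and 3.80 in arterial libraries (2.09 ± 1.80). The libraries labelled sinusoidal held 0, 14 and 0 reads, and their value was -3.76 ± 2.60. The 3 upper populations overlapped with one another, and the libraries labelled sinusoidal lay below all 9. Ddah1 was higher than in them by 8.06 ± 1.36 in CD200-high (adjusted p = 0.00104), 7.02 ± 1.36 in type H (adjusted p = 0.00227) and 5.85 ± 1.36 in arterial libraries (adjusted p = 0.0178). With so few reads the size of these differences depends on the 0.5 read added. The arterial call was lost without arterial replicate 2 or 3 (adjusted p = 0.0618 and 0.0887) and without replicate 1 or 3 of those labelled sinusoidal (adjusted p = 0.0647 and 0.0603). With 1 CPM added in place of 0.5 read it was 2.28 (adjusted p = 0.0672). None of the 3 passed with equal pan-endothelial medians (3.0, 0.96 and 1.79).

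Ddah2 passed in 1 of the 6 comparisons. Its values were 5.99, 5.73 and 6.28 in CD200-high (6.0 ± 0.28) and 6.47, 6.37 and 6.17 in type H (6.33 ± 0.15). Arterial libraries held 5.51, 4.85 and 5.95 (5.44 ± 0.56), and those labelled sinusoidal 5.85, 5.64 and 5.41 (5.63 ± 0.22). Type H lay above all arterial and all sinusoidal-labelled libraries and overlapped with CD200-high. The 1 call was type H above arterial by 0.90 ± 0.29 (adjusted p = 0.0454), and it did not hold with the replicate block (adjusted p = 0.0524) or without arterial replicate 2 (0.60, adjusted p = 0.153). It passed in the same direction in 8 of 23 alternatives. Type H against the libraries labelled sinusoidal, at 0.70, did not pass (adjusted p = 0.0913). It did in the fit of only these populations (adjusted p = 0.0305), with voom weights (0.72, adjusted p = 0.0321) and without arterial replicate 2 (adjusted p = 0.048). With equal pan-endothelial medians it passed in the opposite direction (-5.36, adjusted p = 1.31e-07). Between CD200-high and the libraries labelled sinusoidal the difference was 0.36 with a 95% interval of -0.26 to 0.99 (adjusted p = 0.375).

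Of the genes that respond to nitric oxide in the receiving cell, some were lower in type H. The list of 9 names holds 8 genes, since Mrvi1 and Irag1 name the same one, and 7 were tested. Of the 7, 3 were higher for CD200-high against type H (13% of all genes passed), and 0 passed by limma when only these 2 populations were fitted. For type H against arterial libraries 4 were lower (20.7% of all genes), and 2 passed without type H replicate 1 or arterial replicate 2. Against those labelled sinusoidal 4 were lower in type H (28.6% of all genes), and all 7 passed with equal pan-endothelial medians. Vasp, which binds actin and is phosphorylated in response to nitric oxide, averaged 5.97 in type H, 5.15 in CD200-high, 6.22 in arterial and 5.88 in sinusoidal-labelled libraries. The list's median differences were 2.81, -5.39 and -7.73 in these comparisons, beside -0.05, -0.20 and -0.20 over all genes, and libraries at 0 reads enter these medians with the 0.5 read added. Gucy1a1, a subunit of the guanylate cyclase that senses nitric oxide, had 0, 0 and 236 reads in type H and 817, 715 and 117 in CD200-high. It had 526, 139 and 192 reads in arterial libraries and 1299, 909 and 1589 in those labelled sinusoidal. Its call in CD200-high against type H (7.5 ± 1.92, adjusted p = 0.0237) was lost in 7 of 23 alternatives, among them without CD200-high replicate 1 or 2 and without type H replicate 1 or 2. Pde5a, the phosphodiesterase that ends the cyclic GMP signal, had 104, 0 and 2 reads in type H, and stood at 6.59 ± 0.22 in the libraries labelled sinusoidal. The megakaryocyte and platelet list took 0.319% to 0.421% of the reads there and 0.00379% to 0.00733% in type H, and its part in these values was not tested.

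Cav1 encodes caveolin-1, the protein that forms caveolae and binds the synthase, and it set CD200-high and arterial libraries above type H. Its values were 10.24, 10.91 and 11.62 log2 CPM in CD200-high (10.92 ± 0.69) and 9.97, 10.39 and 10.27 in arterial libraries (10.21 ± 0.21). Type H libraries held 8.0, 8.01 and 7.68 (7.90 ± 0.19), and the libraries labelled sinusoidal 4.79, 5.36 and 5.39 (5.18 ± 0.34). CD200-high and arterial values overlapped, all 6 lay above type H, and type H lay above the libraries labelled sinusoidal. Cav1 was higher for CD200-high than for type H by 3.03 ± 0.29 (adjusted p = 4.9e-05), an 8.15-fold difference. It was 4.97-fold higher in arterial than in type H libraries (type H minus arterial -2.31 ± 0.29, adjusted p = 0.000264). Both kept their call in all 23 alternatives, and with equal pan-endothelial medians they were larger, at 4.03 and -4.31.

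Beside the step from type H to CD200-high, all 10 bone and osteoblast genes were also higher in CD200-high, and their share of the reads was 12% to 16.4% against 0.413% to 0.539%. Beside the step from type H to arterial libraries, 7 of 8 reticular stroma and adipocyte genes and 9 of 10 bone genes were higher in arterial. The part of these other cells in the 2 differences was not tested. The difference between CD200-high and arterial libraries was 0.71 with a 95% interval of 0.07 to 1.35, and missed the threshold (adjusted p = 0.142). It passed without CD200-high replicate 1 (1.05, adjusted p = 0.0244). Against the libraries labelled sinusoidal Cav1 was higher by 5.74 ± 0.29 in CD200-high (adjusted p = 2.04e-07), 5.03 ± 0.29 in arterial (adjusted p = 1.24e-06) and 2.71 ± 0.29 in type H (adjusted p = 3.58e-05). With equal pan-endothelial medians the first was 0.68 and did not pass (adjusted p = 0.0695), and the type H difference turned to -3.34.

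Cav2 encodes caveolin-2, which joins caveolin-1 in the coat, and its gene lies next to Cav1 on the same strand. It stood at 8.66, 9.25 and 10.17 in CD200-high (9.36 ± 0.76) and 8.27, 8.11 and 8.48 in arterial libraries (8.29 ± 0.19). Type H libraries held 7.66, 7.19 and 7.41 (7.42 ± 0.24), and those labelled sinusoidal 6.39, 5.77 and 4.75 (5.64 ± 0.83). No values of neighbouring populations in this order overlapped. CD200-high was higher than type H by 1.94 ± 0.41 (adjusted p = 0.0085), 3.84-fold, and by 3.72 ± 0.41 than the libraries labelled sinusoidal (adjusted p = 5.12e-05). Arterial and type H libraries were higher than those labelled sinusoidal by 2.65 ± 0.41 (adjusted p = 0.00147) and 1.78 ± 0.41 (adjusted p = 0.00641), and all 3 of these turned negative with equal pan-endothelial medians (-1.33, -1.41 and -4.27). CD200-high against arterial, at 1.07 ± 0.41, did not pass (adjusted p = 0.113), nor did type H against arterial at -0.87 ± 0.41 (adjusted p = 0.162). The former passed in 1 of 23 alternatives, with precision weights by voom (1.01, adjusted p = 0.0464). The latter passed in 2 of 23, among them the fit of only these populations (-0.87, adjusted p = 0.0134).

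The balance of the 2 caveolins was set apart without overlap in 5 of the 6 pairs of populations. With 3 libraries a side, the exact permutation test used could not give a p under 0.05, so its outcome decides nothing here. Within a library, Cav1 exceeded Cav2 by 1.45 to 1.66 log2 in CD200-high, by 1.70 to 2.28 in arterial and by 0.27 to 0.81 in type H. In the libraries labelled sinusoidal the difference ran from -1.60 to 0.65. The means were 1.56 ± 0.11, 1.92 ± 0.31, 0.47 ± 0.30 and -0.46 ± 1.12. Of the 6 pairs of populations, 5 did not overlap, each with an exact two-sided permutation p of 0.1, the smallest that 3 libraries against 3 can give. Type H and the libraries labelled sinusoidal overlapped (exact permutation p = 0.3). After adjustment over the 6 pairs the exact permutation p was 0.12 for the 5 and 0.3 for the other.

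**Figure D4:**
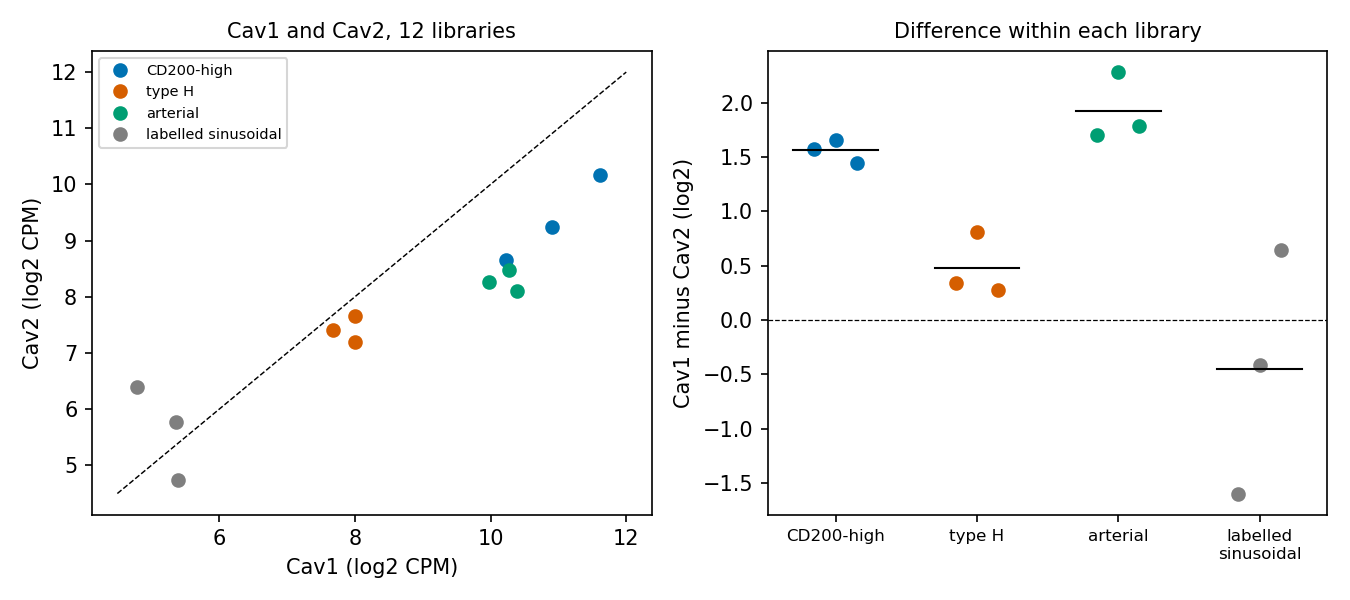
Left, Cav2 against Cav1 (log2 CPM) in the 12 libraries, with the dashed line at equal values. Right, Cav1 minus Cav2 (log2) in each library, with the mean of each population as a line, from 1.92 in arterial and 1.56 in CD200-high to 0.47 in type H and -0.46 in the libraries labelled sinusoidal.

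The 250 bases before the first Cav1 start and before the Cav2 start are shown, since these neighbouring genes had the same order of means over the 4 populations, and that of Pts, which was lowest where they were highest. The sequences are from RefSeq (GRCm38.p6), 5′ to 3′ on the gene's strand. Capitals mark GGGCGG (GC box), CACCC (a box read by KLF factors) and CCGGAA (an ETS-type core), searched on both strands, with letters of overlapping matches capitalised once.
Cav1 (chr6:17306085-17306334, plus strand): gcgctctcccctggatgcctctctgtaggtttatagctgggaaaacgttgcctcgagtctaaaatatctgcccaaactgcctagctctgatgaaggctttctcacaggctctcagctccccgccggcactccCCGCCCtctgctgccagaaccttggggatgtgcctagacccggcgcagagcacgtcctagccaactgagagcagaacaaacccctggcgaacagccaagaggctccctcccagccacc
Cav2 (chr6:17280935-17281184, plus strand): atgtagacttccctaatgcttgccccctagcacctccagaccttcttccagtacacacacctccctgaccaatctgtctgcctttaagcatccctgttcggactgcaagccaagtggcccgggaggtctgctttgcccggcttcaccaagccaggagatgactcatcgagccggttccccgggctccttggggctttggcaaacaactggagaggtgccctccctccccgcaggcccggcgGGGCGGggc
Pts (chr9:50528657-50528906, minus strand): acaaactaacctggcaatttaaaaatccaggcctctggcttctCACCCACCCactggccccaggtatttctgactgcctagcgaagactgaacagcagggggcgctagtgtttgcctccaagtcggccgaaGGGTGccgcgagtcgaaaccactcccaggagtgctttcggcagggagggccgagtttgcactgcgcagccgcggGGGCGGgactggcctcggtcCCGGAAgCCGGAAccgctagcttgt
The Cav1 and Cav2 windows each held 1 GC box, beginning 118 and 9 bases before the start, and none of the other motifs. The Pts window held 1 GC box, 3 CACCC boxes and 2 ETS-type cores. Of 32536 distinct windows of 250 bases in the table, 33.0% held the GC box, 52.1% the CACCC box and 12.1% the ETS-type core. A match is a description of letters, not a bound site. Of the 9 genes, 7 were matched in the promoter table, without Nos3 and Plvap.

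Other genes of the caveolar coat and neck that passed in CD200-high were higher there. Of 9 tested genes of a list of 10, CD200-high had 3 higher against arterial libraries (12.9% of all genes passed) and 2 higher against type H (13% of all genes). The 3 came to 1 without arterial replicate 1, at the same total or with equal pan-endothelial medians, and to 0 by limma without the trend. The 2 came to 1 without CD200-high replicate 1 or type H replicate 1 or 2, and to 8 with equal pan-endothelial medians. Type H had 2 higher and 2 lower against arterial (20.7% of all genes). Those 4 came to 0 by limma without arterial replicate 1, and to 1 or 2 when any 1 of 9 other libraries was left out. Against the libraries labelled sinusoidal, CD200-high had 5 higher (28.7% of all genes), type H 4 higher and 2 lower (28.6%), and arterial libraries 3 higher (10.2%, and 7 called with equal pan-endothelial medians). The list's median differences were 0.94, 0.60, -0.23, 1.75, 0.66 and 0.89 in that order, beside -0.22, -0.05, -0.20, -0.22, -0.20 and -0.02 over all genes. No reads of Cav3, the muscle caveolin, were counted in the 3 type H libraries, and against a floor of 3 reads per library CD200-high was at least 44.0-fold higher. Its call against type H was lost when any 1 of 5 libraries was left out, and taking it at this bound left the list's median at 0.60.

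Cavin1, which caveolae require, was at 9.72 ± 0.57 for CD200-high, 8.70 ± 0.28 for arterial, 8.54 ± 0.16 for type H and 6.76 ± 0.12 for sinusoidal-labelled libraries. CD200-high was higher by 1.18 ± 0.25 against type H (adjusted p = 0.00776) and by 1.03 ± 0.25 against arterial (adjusted p = 0.0184). The arterial call was lost in 5 of 23 alternatives, among them without arterial replicate 1 (0.87, adjusted p = 0.076) and with equal pan-endothelial medians (0.03). Cavin3, a cavin that binds signalling kinases, had its highest mean in type H, at 7.80, 9.02 and 8.69, and overlapped there with CD200-high at 8.06, 8.05 and 8.30. Arterial libraries held 6.86, 7.12 and 7.13, and those labelled sinusoidal 2.84, 3.83 and 4.41. It was higher in type H than in arterial libraries by 1.46 ± 0.38 (adjusted p = 0.0172), the opposite direction to Cav1, and turned to -0.54 with equal pan-endothelial medians. Without type H replicate 2 or 3 or arterial replicate 1 the call was lost. Cavin2, which shapes caveolar membrane in endothelium, was also higher in type H than in arterial libraries, by 0.80 ± 0.25 (adjusted p = 0.041). That call was lost in 12 of 23 alternatives, among them the replicate block (adjusted p = 0.0616), and turned to -1.20 with equal pan-endothelial medians. Ehd2 averaged 8.98 ± 0.25 for CD200-high, 8.38 ± 0.19 for type H, 8.04 ± 0.22 for arterial and 5.51 ± 0.51 for sinusoidal-labelled libraries.

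**Figure D5:**
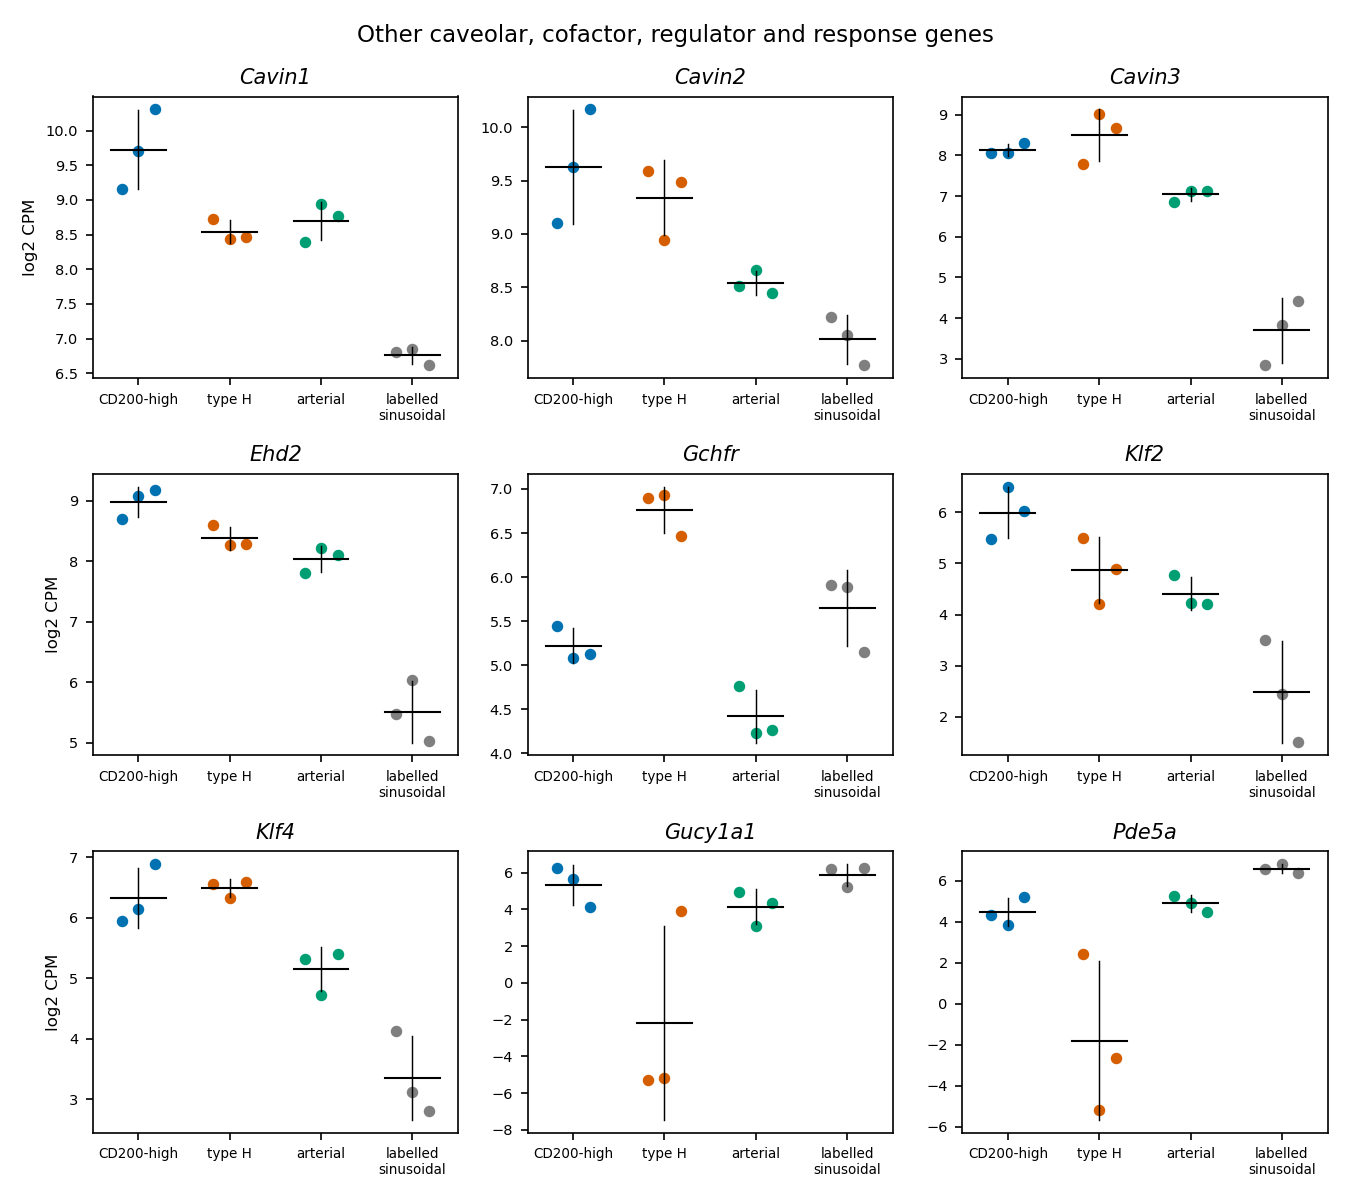
Levels (log2 CPM, a separate vertical scale in each panel) of 9 genes from the fixed lists in every library, with the mean and 1 SD as lines. Gchfr is highest in type H (mean 6.76), Cavin1 in CD200-high (mean 9.72), and Gucy1a1 and Pde5a are at or near 0 reads in 2 of 3 type H libraries.

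The genes most like Cav1 over the 12 libraries were Ltbp4 (r = 0.98), Myadm (r = 0.97) and Jam2 (r = 0.97) among 4990 genes. Ltbp4, a matrix protein that holds latent TGF-beta, stood at 7.01 in CD200-high, 7.04 in arterial, 4.93 in type H and 2.62 in the libraries labelled sinusoidal, lower in type H than in CD200-high and arterial libraries, as Cav1 was. Jam2, a junctional adhesion molecule, was at 9.34, 7.39, 5.63 and 2.26 in that order of populations. Myadm, a membrane protein gene, was at 10.12, 9.83, 8.65 and 7.13.

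Plvap, which encodes the diaphragm protein, was high in type H and CD200-high and low in arterial libraries. Type H libraries held 8.94, 10.20 and 8.57 (9.23 ± 0.85) and CD200-high 7.33, 6.74 and 8.52 (7.53 ± 0.91). Arterial libraries held 2.90, 4.17 and 3.28 (3.45 ± 0.65), and the libraries labelled sinusoidal -0.04, 2.45 and 2.26 (1.56 ± 1.38). No 2 populations overlapped, though type H and CD200-high nearly met at 8.57 and 8.52. Plvap was higher in type H than in arterial libraries by 5.78 ± 0.70 (adjusted p = 0.000197), 55.1-fold, and in CD200-high than in arterial by 4.08 ± 0.70 (adjusted p = 0.00312), 16.9-fold. The first passed in all 23 alternatives, and the second in 22, the exception being precision weights by voom (3.89, adjusted p = 0.0911).

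CD200-high against type H missed the threshold, at -1.71 with a 95% interval of -3.23 to -0.18 (adjusted p = 0.141), and it passed with 10 CPM added (-1.65, adjusted p = 0.0221) and with voom weights (-1.89, adjusted p = 0.02). Against the libraries labelled sinusoidal Plvap was higher by 7.68 ± 0.70 in type H (adjusted p = 8.82e-06) and 5.97 ± 0.70 in CD200-high (adjusted p = 7.54e-05). The latter did not pass with equal pan-endothelial medians (0.91, adjusted p = 0.174) or voom weights (5.72, adjusted p = 0.058). Arterial libraries, at 1.89 ± 0.70 above those labelled sinusoidal, did not pass (adjusted p = 0.121). Beside type H, the list of sinusoidal genes took 1.49% to 1.77% of the reads, and 9 of its 10 genes were higher than in arterial libraries. The genes most like Plvap were Golm1 (r = 0.99), Naa35 (r = 0.98) and Tmbim1 (r = 0.97) among 4990, which spanned smaller ranges. Golm1, of the Golgi membrane, averaged 7.57 for type H, 7.28 for CD200-high, 6.18 for arterial and 5.74 for sinusoidal-labelled libraries.

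Per kilobase of exon in GENCODE M21, whose gene models may not be those the authors counted on, the 9 genes ranked differently in each population. Cav1 led in CD200-high at 607 CPM per kb, above Cav2 at 216, Plvap at 106 and Ddah2 at 40.5, with Nos3 at 14.2. In arterial libraries Cav1 led at 346, above Cav2 at 94.2, Ddah2 at 28.5 and Pts at 17.7, with Nos3 at 6.91 and Plvap at 5.89. In type H Plvap led at 343, above Cav1 at 69.5, Cav2 at 51.8 and Ddah2 at 50.8, with Nos3 at 11. In the libraries labelled sinusoidal Ddah2 led at 31.4, above Pts at 24.3, Cav2 at 16.5 and Cav1 at 10.7, with Nos3 at 0.214. These per-length means have no test, and compare the genes as levels within a population only.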

How the data were processed

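Per the submitters' processing notes, Trimmomatic, STAR, SAMtools, deepTools, featureCounts and R 4.3 were used. The build listed there is a human one although the samples are mouse, so the files give no usable coordinates, and the annotation and strand counted are not given in the sources used here. The deposited values are log2 CPM of a scaled library size with 0.5 read added. Whole reads were recovered from them within 0.01 read in all 12 libraries.

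Genes with at least 10 scaled reads in at least 3 libraries were tested (17086 of 17362) with limma 3.58.1 in R 4.3.3, with a mean-variance trend and 1 mean per population over all 12 libraries. P-values were adjusted by Benjamini-Hochberg within each of the 6 comparisons. The fit was checked on simulated data with the same spread setting for all genes and populations. The check therefore does not cover unequal spreads such as those of Nos3 and Ddah1. Alternatives changed the samples fitted, the trend, weights, pseudocount, scaling and filter, added the replicate block, or left out 1 library each. The fit without the 3 libraries labelled sinusoidal was chosen after seeing the data.

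The labels give each population the same mouse numbers 1 to 3, which is where the pairing of the replicate block comes from. Over 18 pairs of same-numbered libraries, deviations from the population means correlated at -0.04 to 0.11 (9846 genes).

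The named genes are the 9, up to 3 genes a list and comparison with the smallest adjusted p among those called, and for Nos3, Cav1 and Plvap the 3 genes with the highest r. Some genes that this rule names are not reported here. The 9 genes and the lists were chosen with earlier results of these data known. Promoters are RefSeq's (GRCm38.p6).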

Additional observations from a re-analysis of the deposited data

How the results depend on the processing

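Of the 54 differences of the 9 genes, 26 passed. Of these, 8 passed in the same direction in every alternative run, 6 passed in each but in the opposite direction with equal pan-endothelial medians, and 12 lost the call in at least 1, 2 of which also turned. Of the 28 that did not pass, 16 did in at least 1. Some of these passed only with equal pan-endothelial medians and in the opposite direction. Gch1 did so in CD200-high and in type H against the libraries labelled sinusoidal (adjusted p = 0.000252 and 2.55e-05). Shifting libraries to equal pan-endothelial medians moved the libraries labelled sinusoidal by up to 4.37 (log2), and it gave most of the reversals. For CD200-high against arterial they were Nos3 -0.019, Spr -0.25, Ddah2 -0.44, Cav1 -0.28, Calm2 -0.31 and Ehd2 -0.055, and for CD200-high against type H Spr 0.68 and Ddah2 0.67. For CD200-high against the libraries labelled sinusoidal they were Gch1 -4.34, Spr -3.56, Ddah2 -4.69, Cav2 -1.33, Klf4 -2.08, Klf2 -1.54, Ehd2 -1.59, Cavin1 -2.09 and Cavin3 -0.61. For type H they were Gch1 -5.46, Spr -4.24, Ddah2 -5.36, Cav1 -3.34, Cav2 -4.27, Gchfr -4.94, Klf4 -2.91, Cavin3 -1.25, Ehd2 -3.19 and Cavin1 -4.27. For arterial they were Gch1 -2.90, Spr -3.31, Cav2 -1.41, Plvap -2.17, Klf4 -2.26, Klf2 -2.14, Ehd2 -1.53, Cavin3 -0.72 and Cavin1 -2.12. For type H against arterial they were Nos3 -1.36, Spr -0.93, Ddah1 -0.83, Ddah2 -1.10, Klf4 -0.65, Cavin3 -0.54 and Cavin2 -1.20. Gch1 also turned in CD200-high against type H with voom weights (-0.076), the same total (-0.015) or 1 library left out (-0.22, -0.17 and -0.30, over a range of -0.30 to 0.75). It turned in CD200-high against arterial without CD200-high replicate 2 (0.19, range -0.79 to 0.19) and in type H against sinusoidal-labelled without replicate 1 of the latter (-0.044, range -0.044 to 1.21). Ddah2 turned in arterial against sinusoidal-labelled without arterial replicate 2 (0.098, range -0.45 to 0.098).

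With equal pan-endothelial medians the genes called came to 3446 (CD200-high against arterial), 14673 and 15626 (CD200-high and type H against sinusoidal-labelled), 10634 (type H against arterial) and 13140 (arterial against sinusoidal-labelled, with 7 of the 9). Fits on only the populations compared called 1447 in CD200-high against type H and 2837 in arterial against sinusoidal-labelled. With 1 library left out, the calls over all genes ranged from 1353 to 2458 for CD200-high against arterial, 1689 to 2328 against type H and 3499 to 5223 against sinusoidal-labelled. They ranged from 3836 to 5113 for type H against sinusoidal-labelled, 2581 to 3726 for type H against arterial and 1019 to 1870 for arterial against sinusoidal-labelled. Of the 9, they ranged from 2 to 4 for type H against arterial. With the replicate block 2, 3, 7, 6, 3 and 4 of the 9 passed for CD200-high against arterial, type H and sinusoidal-labelled, type H against sinusoidal-labelled and arterial, and arterial against sinusoidal-labelled, and Ddah2 in type H against arterial (adjusted p = 0.0524) was the 1 changed call of the 9. The cause of these changes was not tested. Nos3 and Ddah1 rest on at most 30 and 14 reads in the libraries labelled sinusoidal, which held 16.6 to 21.6 M reads.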
